A study of Mus musculus with 24 samples.

Results

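The MHC class I genes are described here in MLL::ENL mouse progenitors: the 6 heavy chain genes H2-K1, H2-D1, H2-Q4, H2-Q6, H2-Q7 and H2-T23, the light chain B2m, the peptide loading genes Tap1 and Tapbp, and the regulator Nlrc5. They were taken by symbol, 10 of 55487 genes in the count table, and all 10 were among the 23059 genes tested. The study measured RNA by bulk sequencing in sorted blood progenitors of 24 mouse samples, 4 in each of 6 groups. Liver was the source at the day of birth (P0), in a wild-type group (P0 WT) and in a group with MLL::ENL (ME) switched on at E10.5, a day of embryonic life (P0 ME). Bone marrow was the source at postnatal day 28 (P28), in a wild-type group (P28 WT) and in groups whose ME was induced at E10.5 (P28 ME E10.5) or at birth (P28 ME P0). The sixth group, also at P28 with ME induced at E10.5, carries the words "RLT Vav Txp", which the labels do not expand, and is called RLT Vav Txp. ME is the human fusion MLL::ENL in a Tet-off mouse, a design in which a transgene is transcribed unless a tetracycline is given. The cells are labelled LSK, while the design text speaks of lineage-negative KIT+ cells. The 4 samples of a group are biological replicates per the design text, and the labels give no strain, sex or litter. Age and tissue changed together, so the day of life and the move from liver to marrow cannot be told apart. In bulk RNA, a smaller number of expressing cells and less RNA per cell cannot be told apart either.

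MHC class I molecules carry short peptides from inside the cell to its surface, where CD8 T cells and natural killer cells read them. A heavy chain pairs with beta-2 microglobulin (B2m) in the endoplasmic reticulum. TAP1, with TAP2, pumps peptides in, and tapasin (Tapbp) holds the empty molecule at the pump until a peptide fits. H2-K1 and H2-D1 encode the classical, highly polymorphic chains. H2-Q4, H2-Q6, H2-Q7 and H2-T23 encode nonclassical chains. H2-Q7 gives most of Qa-2, an antigen known from lymphocytes and blood stem cells, and H2-T23 gives Qa-1, the ligand of NKG2A receptors. NLRC5 drives transcription of these genes as a partner of factors bound at their promoters.

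Before the members, the libraries themselves differed. Total counts ran from 31233688 to 89774511, so 1 CPM, the unit of reads scaled to library size, stood for 32.5 to 90.1 reads. Kit and Ly6a, the KIT and SCA-1 genes that define LSK cells, were detected in every group. In both P0 groups, libraries 2 to 4 had macrophage marker sums (10 genes) of 1064 to 1573, neutrophil sums of 10081 to 32832 and erythroid sums of 2729.6 to 8557 CPM. The libraries numbered 1 had 116 and 122, 778 and 867 and 222 and 460.4 CPM for the same lists. Mast cell and basophil sums (6 genes) were 3785 CPM in P0 WT library 1, the highest of the 24 libraries, 419 to 859 in the other P0 WT libraries, 40.2 in P0 ME library 1 and 205 to 484 in the other P0 ME libraries. The macrophage sum was 48.9 to 107 CPM in P28 WT, P28 ME E10.5 and P28 ME P0, and 600.0 to 2623 in RLT Vav Txp. Summed LSK markers were 4641 to 5769.8 CPM in those 12 P28 libraries, 5008 and 5402 in the P0 libraries numbered 1, 2391 to 3632 in the other P0 libraries and 2413 to 3397 in RLT Vav Txp. Each fold change that involves P0 was therefore also computed without the libraries numbered 1 and without the libraries numbered 2 to 4.

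The heavy chain genes are close copies, and H2-Q6 and H2-Q7 are the closest pair of the 6, so their sequences bear on what a read count of each means. H2-Q6 (ENSMUSG00000073409) lies on chromosome 17 from 35424850 to 35430055 and H2-Q7 (ENSMUSG00000060550) from 35439155 to 35443773, both on the plus strand of GRCm38 (GENCODE M21). On the same chromosome lie Tapbp (ENSMUSG00000024308) from 33915899 to 33929292, H2-K1 (ENSMUSG00000061232) from 33996017 to 34000347, Tap1 (ENSMUSG00000037321) from 34187553 to 34197225, H2-D1 (ENSMUSG00000073411) from 35262730 to 35267499, H2-Q4 (ENSMUSG00000035929) from 35379617 to 35385290 and H2-T23 (ENSMUSG00000067212) from 36029773 to 36032855, of which H2-K1 and H2-T23 are on the minus strand. B2m (ENSMUSG00000060802) lies on chromosome 2 from 122147686 to 122153083 and Nlrc5 (ENSMUSG00000074151) on chromosome 8 from 94434356 to 94527272, both on the plus strand. The coding sequences of H2-Q6 and H2-Q7 were 95.4% identical, with 45 differences in 978 aligned bases. The other pairs of heavy chains were 80.7% to 91.4% identical. Coding bases 61 to 180 of both transcripts are shown with their 14 differences in capitals, since this stretch separates the genes:
H2-Q6: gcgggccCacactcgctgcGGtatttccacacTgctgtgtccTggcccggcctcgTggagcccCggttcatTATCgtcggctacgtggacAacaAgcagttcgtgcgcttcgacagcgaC
H2-Q7: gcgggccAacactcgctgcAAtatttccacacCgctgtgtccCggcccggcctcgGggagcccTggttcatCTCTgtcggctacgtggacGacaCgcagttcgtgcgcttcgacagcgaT
Coding bases 605 to 869, a run of 265 bases, were identical in both. Windows were taken from the longest coding transcript of each gene and sought in the annotated transcripts of other genes. Of the 100-base windows, 16.4% in H2-Q7 occurred in another gene as well (11.7% in H2-Q6), against 10.8% in H2-Q6. The share was 7.28% in H2-T23, 4.64% in H2-D1, 2.66% in H2-Q4, 0.107% in Tapbp and 0 in H2-K1, B2m, Tap1 and Nlrc5. With 50-base windows it was 34.9% in H2-Q7, 32% in H2-Q6, 28.8% in H2-T23, 24.3% in H2-Q4, 14.3% in H2-D1 and 8.79% in H2-K1. It was 2% in Tapbp, 0.861% in Tap1 and 0 in B2m and Nlrc5. How the authors' counting treated reads with several matches is not given in the sources used here, so the split between H2-Q6 and H2-Q7 is uncertain and the sum of both is also reported. Opposite-strand genes overlapped 19.1% of the exonic bases of H2-Q4 and 0.918% of Nlrc5. For Tapbp 29% overlapped Gm19412 and Zbtb22, and for Tap1 3.87% overlapped Psmb9, and the strand setting of the counting is not given.

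The promoters are shown because 5 of the heavy chain genes hold a kappaB-like and an interferon-response-like motif upstream in the same order, although their expression at P0 differed widely. The sequences are the 200 bases before the RefSeq gene start on GRCm38.p6, in gene orientation, for H2-K1 (chr17:34000348-34000547, minus strand), H2-Q4 (chr17:35379417-35379616, plus), H2-Q6 (chr17:35424650-35424849, plus) and H2-Q7 (chr17:35438955-35439154, plus). Capitals mark matches on either strand to the motifs below:
H2-K1: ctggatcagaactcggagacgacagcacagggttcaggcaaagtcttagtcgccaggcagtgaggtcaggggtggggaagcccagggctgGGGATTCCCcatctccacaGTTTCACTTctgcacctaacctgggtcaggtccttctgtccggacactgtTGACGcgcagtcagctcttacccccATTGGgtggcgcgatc
H2-Q4: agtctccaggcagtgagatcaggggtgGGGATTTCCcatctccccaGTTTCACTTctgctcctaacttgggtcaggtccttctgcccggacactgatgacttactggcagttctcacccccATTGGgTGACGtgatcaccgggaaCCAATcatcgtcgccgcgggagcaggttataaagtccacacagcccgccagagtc
H2-Q6: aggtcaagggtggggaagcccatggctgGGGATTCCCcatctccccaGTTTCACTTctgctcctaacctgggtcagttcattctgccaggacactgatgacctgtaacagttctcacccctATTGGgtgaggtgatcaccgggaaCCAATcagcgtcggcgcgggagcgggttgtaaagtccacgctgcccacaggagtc
H2-Q7: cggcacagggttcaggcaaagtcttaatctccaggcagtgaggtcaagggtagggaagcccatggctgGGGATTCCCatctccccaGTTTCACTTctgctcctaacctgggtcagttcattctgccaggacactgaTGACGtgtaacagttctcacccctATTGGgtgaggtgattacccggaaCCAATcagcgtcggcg
Both strands of the 250 bases before the start were searched for a kappaB-like motif (GGGANTNCC), an interferon-response-like motif (GTTTCNNTT), a CRE-like motif (TGACG) and a CCAAT box. Apart from kappaB-like matches that read the same on both strands, matches in the 4 printed promoters do not overlap. H2-K1, H2-D1, H2-Q4, H2-Q6 and H2-Q7 each held 1 kappaB-like and 1 interferon-response-like match, which 3.36% and 4.95% of 32851 RefSeq promoter entries hold. H2-T23, B2m, Tap1 and Tapbp held neither sequence of letters in this window. The CRE-like letters, held by 17.8% of entries, occurred in H2-K1, H2-D1, H2-Q4 and H2-Q7, and also in B2m and Tap1. They were not in the window of H2-Q6. All 9 members with an entry held a CCAAT match, as 33.8% of entries do. H2-Q6 and H2-Q7 thus hold the same kappaB-like and interferon-response-like letters as H2-K1 and H2-D1, genes with much higher levels at P0. Whether these letters bear on the levels was not tested.

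Levels between genes were compared as CPM per kilobase of annotated exon. In P28 WT the order was B2m at 4296, H2-D1 at 913, H2-K1 at 610.1, H2-T23 at 155, Tapbp at 114, H2-Q6 at 112, H2-Q7 at 60.3, Tap1 at 36.6, H2-Q4 at 8.69 and Nlrc5 at 3.30. In P0 WT it was B2m at 2372, H2-D1 at 418, H2-K1 at 180.0, Tapbp at 88.5, H2-T23 at 85.6, Tap1 at 19.9, H2-Q4 at 2.24, H2-Q6 at 1.57, Nlrc5 at 1.08 and H2-Q7 at 0.429. By this measure H2-Q7 was the last of the 10 at birth, and H2-Q6 stood just above Nlrc5. At P28 both stood above Tap1, within the range of the loading genes. The annotated exons of H2-Q7 cover 4265 bases, while its longest coding transcript has 1523. For H2-Q6 both lengths are 2085. The place of H2-Q7 against H2-Q6 and other genes near it therefore depends on the length used. Within a gene, the 4 P28 groups and the 2 P0 groups formed separate blocks for H2-K1, H2-D1, H2-Q4, H2-Q6 and H2-Q7, with no P0 library as high as any P28 library.

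**Figure D1:**
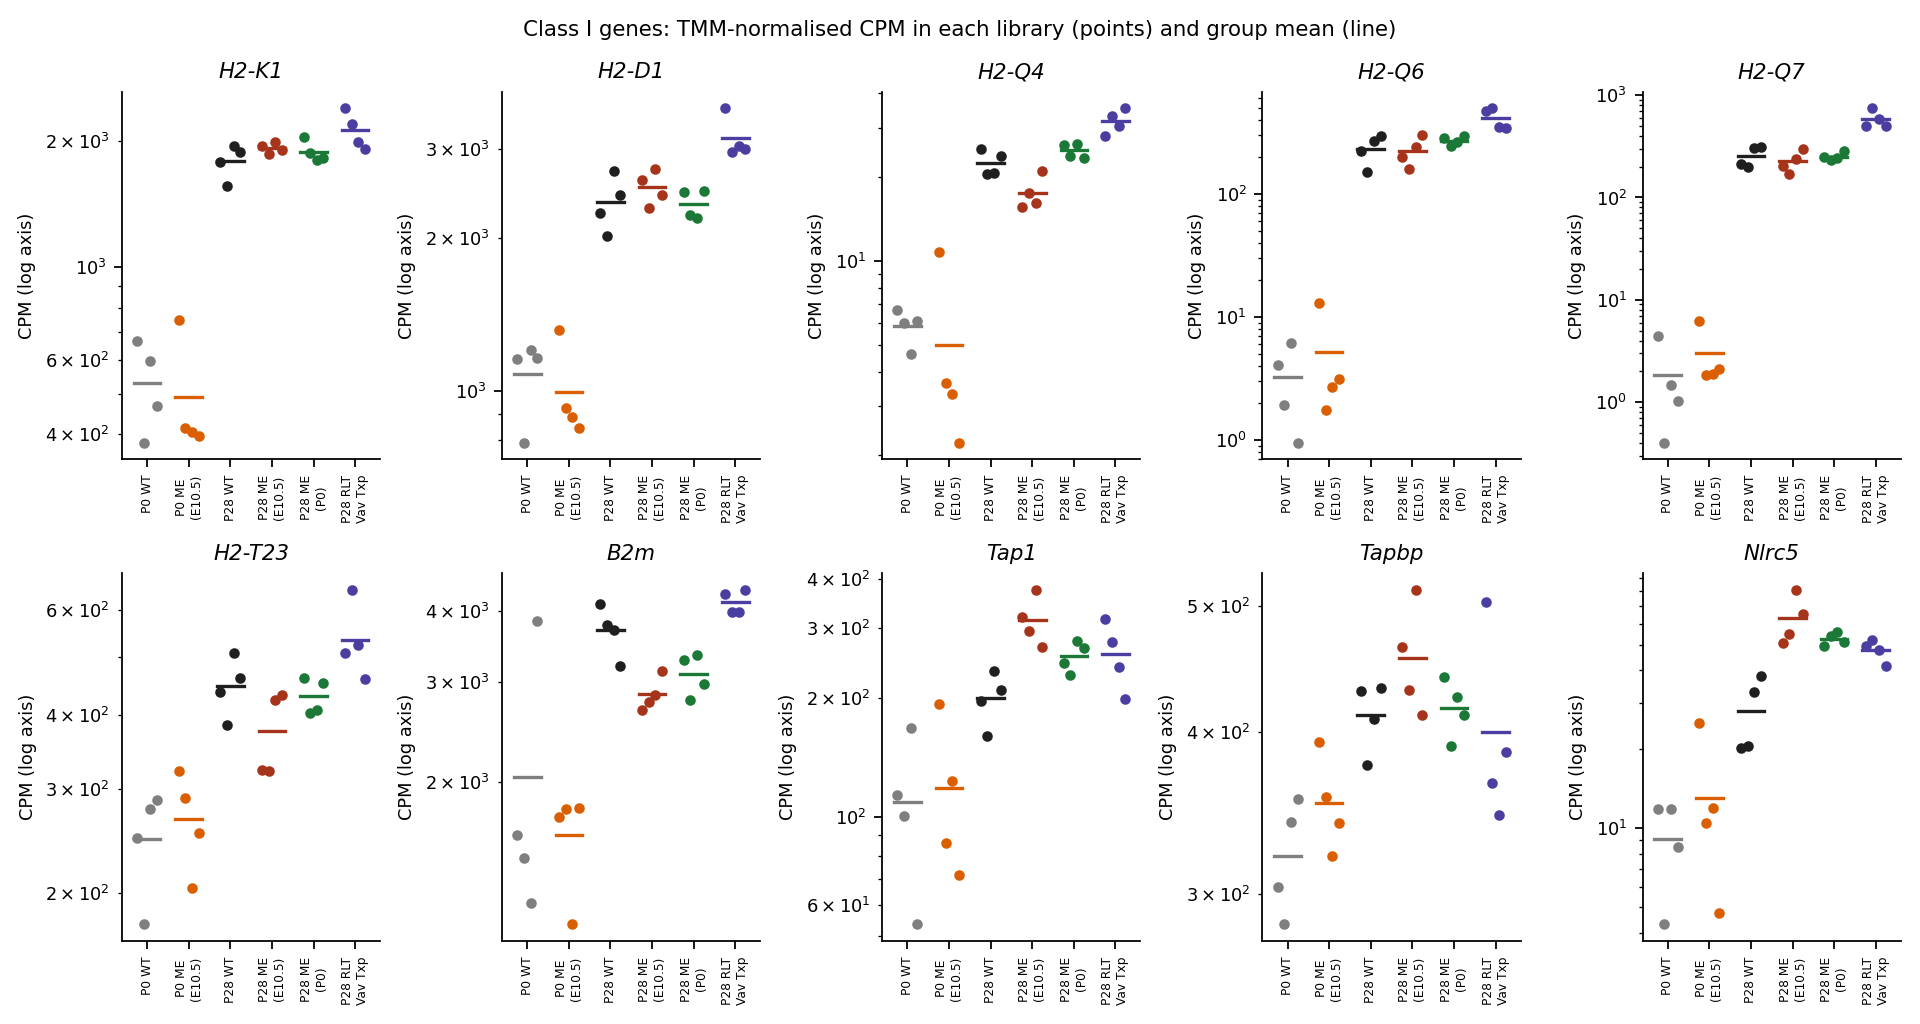
CPM (log axis) of each of the 10 class I genes in the 24 libraries, 1 point per library and 1 colour per group, with a bar at the group mean. H2-Q6 and H2-Q7 stood between 0.403 and 13.0 CPM at P0 and up to 741 CPM at P28, the widest separation of the 10.

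The first comparison was of age in wild-type cells. In P28 WT, 9 of the 10 genes were higher than in P0 WT, and H2-Q6 and H2-Q7 moved most of the 10. Over all genes 3.12% were called higher, where called means an adjusted p (Benjamini-Hochberg) under 0.05 in edgeR's quasi-likelihood test. The median log2 fold change was 1.37 over the 10 members and -0.07 over all genes tested. In 8 members all P28 WT libraries lay above all P0 WT libraries, as 4.89% of all genes did. The rise of H2-Q7 and H2-Q6 was among the results known when the genes were chosen, so their values are given as a description.

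H2-Q7 was at 4.43, 0.403, 1.48 and 1.02 CPM in P0 WT libraries 1 to 4, and at 214, 198, 305 and 310.3 CPM in P28 WT. The lowest of these, in P0 WT library 2, rested on 31 reads. The P28 WT libraries lay far above all 4 P0 WT libraries. The log2 fold change was 7.16 (143-fold, SE 0.59, adjusted p = 2e-07 in edgeR). H2-Q6 was at 4.08, 1.92, 6.09 and 0.952 CPM in P0 WT and 226, 150.0, 268 and 294 CPM in P28 WT. Again no P0 library came near the P28 range. Its log2 fold change was 6.16 (71.5-fold, SE 0.62; adjusted p = 4.35e-06, edgeR). With the reads of both genes summed, the log2 fold change was 6.59 (SE 0.57; adjusted p = 3.07e-07, edgeR).

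The classical chains were already abundant at birth and rose by far less. H2-K1 was at 667, 382, 598 and 468 CPM in P0 WT and 1782, 1559.6, 1947 and 1881 CPM in P28 WT, and H2-D1 at 1153, 790.0, 1206 and 1160.0 and 2246, 2020.4, 2721 and 2432 CPM. No library of one age reached the range of the other for either gene. The log2 fold changes were 1.76 (SE 0.18; adjusted p = 1.18e-06, edgeR) for H2-K1 and 1.13 (SE 0.15; adjusted p = 4.9e-05, edgeR) for H2-D1. Of the other nonclassical chains, H2-Q4 rose from 6.66, 5.95, 4.61 and 6.08 to 25.3, 20.5, 20.7 and 23.8 CPM, a log2 fold change of 1.95 (edgeR adjusted p = 0.000296). H2-T23 had a log2 fold change of 0.86 (edgeR adjusted p = 0.00189), with P0 WT libraries between 178 and 287 CPM and P28 WT libraries between 384 and 509 CPM.

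Of the light chain and the loading genes, B2m and Tap1 passed the test and Tapbp did not. B2m was at 1618, 1475, 1229.8 and 3836 CPM in P0 WT and 4108, 3771, 3699 and 3199.7 CPM in P28 WT, so that P0 WT library 4 lay within the P28 range while the other 3 lay below it. Its log2 fold change was 0.86 (SE 0.23; adjusted p = 0.0219, edgeR). The call was lost without P0 WT library 1, 2 or 3 or P28 WT library 1, with edgeR adjusted p up to 0.0841. Tap1, at 114, 101, 168 and 53.7 CPM in P0 WT and 197, 160.3, 234 and 209 CPM in P28 WT, had groups that overlapped at library 3 of P0 WT. Its log2 fold change was 0.88 (edgeR adjusted p = 0.042). Its call failed on leaving out P0 WT library 1, 2 or 4 or P28 WT library 1, 3 or 4, with edgeR adjusted p up to 0.13. Tapbp did not pass (log2 fold change 0.36, edgeR adjusted p = 0.0901), although its 4 P28 WT libraries, at 377 to 432 CPM, lay above its 4 P0 WT libraries, at 285 to 355 CPM. Nlrc5, the regulator, rose from 11.8, 4.32, 11.9 and 8.50 to 20.2, 20.7, 33.1 and 38.0 CPM, a log2 fold change of 1.62 (SE 0.34; adjusted p = 0.00408, edgeR), with all P28 libraries above all P0 libraries.

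In cells with ME induced at E10.5, the same contrast of P28 with P0 called all 10 members higher, where 9.79% of all genes were called higher. The members' median log2 fold change was 1.61 against -0.18 over all genes tested. In 9 members all P28 ME E10.5 libraries lay above all P0 ME libraries, as 14.4% of all genes did, and the exception was H2-T23. H2-Q7 was at 6.23, 1.86, 1.88 and 2.12 CPM in P0 ME and 204, 169, 237 and 297 CPM in P28 ME E10.5, a log2 fold change of 6.22 (74.5-fold, SE 0.56; adjusted p = 6.88e-07, edgeR). H2-Q6 was at 13.0, 1.76, 2.72 and 3.11 and 201, 159, 242 and 299 CPM, a log2 fold change of 5.44 (43.6-fold, SE 0.60; adjusted p = 8.31e-06, edgeR). P0 ME library 1 was the highest of its group for both genes and still lay far below the lowest P28 library.

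Of the other heavy chains in ME cells, H2-K1 rose by a log2 fold change of 1.97 (edgeR adjusted p = 3.48e-07), from 748, 415, 406 and 396 to 1942, 1859, 1985 and 1897 CPM. H2-D1 rose by 1.34 (edgeR adjusted p = 4.2e-06), H2-Q4 by 1.81 (0.000338) and H2-T23 by 0.49 (0.041). Nlrc5 went from 25.1, 10.45, 11.9 and 4.74 to 50.6, 55.0, 80.9 and 65.7 CPM, a log2 fold change of 2.27 (SE 0.35; adjusted p = 0.000102, edgeR), the largest after H2-Q6 and H2-Q7. Tap1 rose from 193, 86.2, 123 and 71.7 to 319.8, 296, 375 and 269.9 CPM, a log2 fold change of 1.41 (edgeR adjusted p = 0.000807). B2m rose by 0.82 (edgeR adjusted p = 0.0147) and Tapbp by 0.37 (0.0471). The H2-T23 call was lost without P0 ME library 2, 3 or 4 or P28 ME E10.5 library 3 or 4 (edgeR adjusted p up to 0.13). The Tapbp call was lost without P0 ME library 2, 3 or 4 or any 1 of the 4 P28 ME E10.5 libraries (up to 0.16), and the B2m call without P0 ME library 3 (0.0532).

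**Figure D2:**
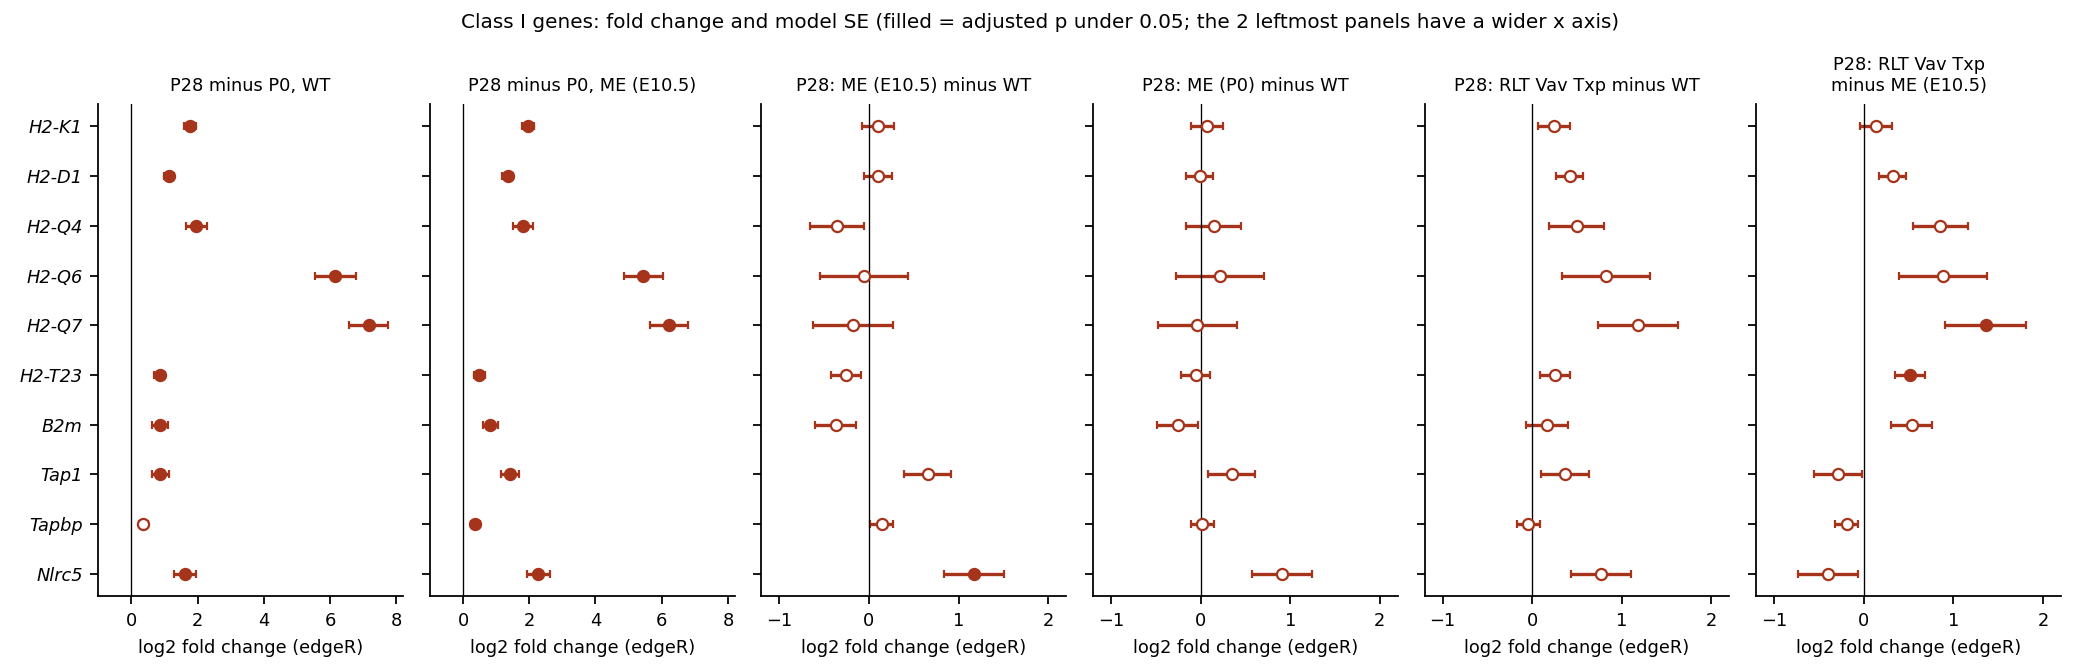
Log2 fold change of the 10 genes in the comparisons of age and of ME, with bars of 1 SE; filled points passed an adjusted p under 0.05. H2-Q7 had age differences of 7.16 in WT and 6.22 in ME cells, against 1.76 and 1.97 for H2-K1.

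These age differences were recomputed with the P0 libraries that stood apart left out, in alternatives chosen after seeing the data. With only the P0 libraries numbered 1, those with the low macrophage, neutrophil and erythroid sums but, in WT, the highest mast cell and basophil sum, 8 members were called in WT and 6 in ME cells. H2-Q7 then had a log2 fold change of 5.93 in WT (edgeR adjusted p = 3.35e-08) and 5.25 in ME (8e-08), and H2-Q6 of 5.91 in WT and 4.18 in ME (2.05e-05 in ME). In these fits the lone P0 library of a group is taken to vary like the other groups. H2-K1 had 1.49 in WT and 1.43 in ME, and H2-D1 1.09 and 1.00. The calls of Tap1 in WT (0.88, edgeR adjusted p = 0.0625) and of H2-Q4 (0.77, 0.108), H2-T23 (0.29, 0.558), Tap1 (0.77, 0.0772) and Tapbp (0.28, 0.551) in ME were not kept. Nlrc5 in ME had 1.39 (0.0181). Without the P0 libraries numbered 1 in both groups, 9 and 10 members were called, with H2-Q7 at 8.04 in WT and 6.86 in ME. Leaving out P0 WT library 1 alone gave 8.04 for H2-Q7 in WT. Leaving out P0 ME library 1 alone gave 6.86 for H2-Q7, 6.48 for H2-Q6 and 2.52 for H2-Q4 in ME.

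H2-Q6 and H2-Q7 took a smaller share of class I reads in each P0 library than in any P28 library. This follows from their larger rise, known when the genes were chosen, so the age tests of this share add no separate support. Reads of H2-Q6 and H2-Q7 made up 0.409%, 0.171%, 0.362% and 0.102% of the reads of the 6 heavy chain genes in P0 WT libraries 1 to 4. In P28 WT they made up 8.93%, 8.03%, 9.94% and 11.2%. The means were 0.261% ± 0.147 (SD, n = 4) and 9.52% ± 1.35 (SD, n = 4), with no overlap (exact two-sided permutation test, p = 0.0286, the smallest that 70 splits allow; 0.0858 after Benjamini-Hochberg adjustment over 24 tests of shares and ratios). In ME cells the share was 0.417% ± 0.257 (SD) at P0 and 8.49% ± 1.85 (SD) at P28, with the same exact permutation p. P28 ME P0 had 10.1% ± 0.595 (SD). None of the 24 tests was under 0.05 after adjustment. The ratio of H2-K1 to H2-D1 reads was also lower at P0, going from 0.490 in P0 WT to 0.764 in P28 WT and from 0.485 to 0.764 in ME cells (exact permutation p = 0.0286 each, adjusted 0.0858). H2-Q7 took 52.6% ± 3.43 (SD) of the reads of the pair in P28 WT and 35.1% ± 19.3 (SD) in P0 WT. In P0 WT libraries 1 to 4 its share was 52.0%, 17.3%, 19.5% and 51.7%, of 423, 179, 682 and 118 reads. The 95% exact binomial intervals of counting error were 47.1% to 56.9%, 12.1% to 23.7%, 16.6% to 22.7% and 42.3% to 61.0%. Those of libraries 1 and 4 did not overlap those of libraries 2 and 3. The cause of this difference was not tested.

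**Figure D3:**
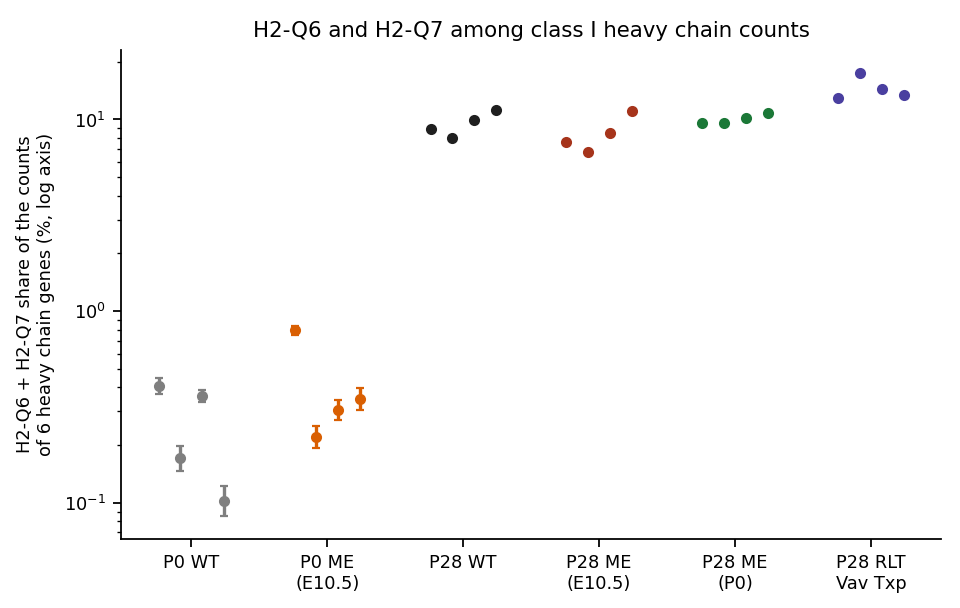
Share of the reads of the 6 heavy chain genes that came from H2-Q6 and H2-Q7 in percent, 1 point per library on a log axis. Bars are 95% exact binomial intervals of counting error, hidden by the points at P28. The 8 P0 libraries lay between 0.102% and 0.795%, the 12 P28 libraries of WT, ME E10.5 and ME P0 between 6.79% and 11.2%, and the 4 RLT Vav Txp libraries between 13.0% and 17.5%.

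Some other genes of the class I pathway also rose with age. Of 23 listed genes (immunoproteasome, TAP, loading and promoter-binding factors), 7 were higher and 0 lower in P28 WT than in P0 WT, with a median log2 fold change of 0.21. Irf1, an interferon-regulated activator of class I promoters, had 1.20 (edgeR adjusted p = 0.00307), and Rfx5, a factor at the promoter module through which NLRC5 acts, had 1.11 (0.0161). The other 5, named after their values were seen, were Tap2 (0.99), the immunoproteasome genes Psmb9 (0.97) and Psmb8 (0.58), Irf2 (0.70) and the tapasin relative Tapbpl (0.69). In ME cells 11 rose and 0 fell, with a median of 0.47, led by Irf1 at 1.62 (edgeR adjusted p = 9.65e-05) and Tap2 at 1.26 (5.68e-06). These lists were set with earlier results of these data known.

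Not all class I genes rose. Of 16 other class I or class I-like genes 14 were tested, and 3 were higher and 1 lower in P28 WT than in P0 WT. H2-T10 had a log2 fold change of 2.29 (edgeR adjusted p = 0.00148) and H2-M3, which presents formylated peptides, 1.37 (0.000391). Hfe, the class I-like iron regulator, had -0.94 (0.0335). In ME cells 4 were higher, among them H2-Q1 (1.46, edgeR adjusted p = 0.00408) and H2-T10 (1.28, 0.0339). Hfe (-1.12, 0.00604) and the IgG receptor Fcgrt (-0.81, 0.00802) were lower. Also tested were 155 other genes with a start between 33996017 and 37483552 on chromosome 17, leaving out genes with class I symbols. Of these, 12 were higher and 3 lower in WT (median 0.06), and 20 and 5 in ME cells (median 0.14). Over all genes 3.12% were called higher in WT and 9.79% in ME cells. The 12 include Tap2, Psmb8 and Psmb9, which are also in the pathway list. They also include H2-DMa, H2-DMb1, H2-Oa and H2-Ob, named after their values were seen. Related genes under other symbols stayed in, such as Gm7030, which held 61 of the 100-base windows of H2-T23.

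**Figure D4:**
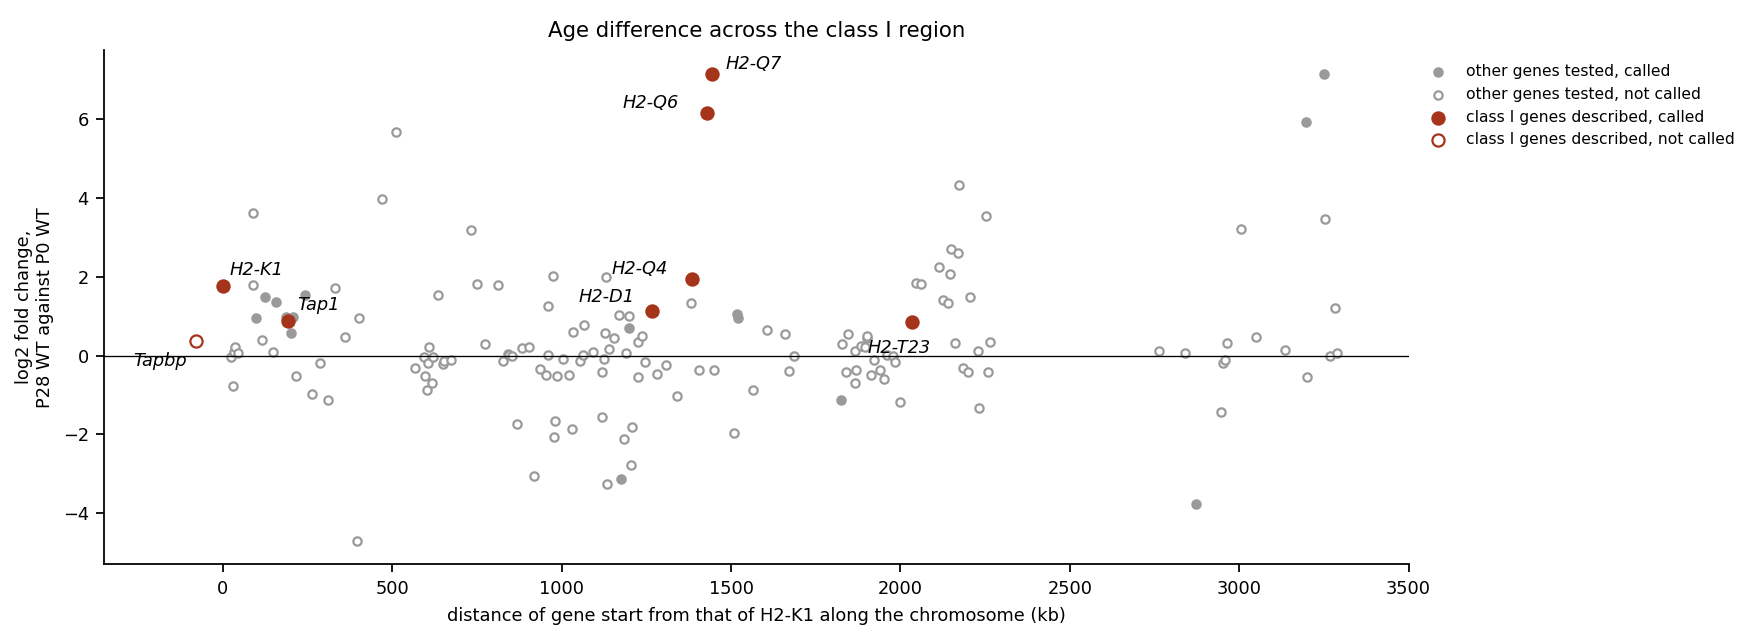
Log2 fold change of P28 WT against P0 WT for genes tested in the class I region, by distance of the gene start from that of H2-K1 in kb. Further genes with class I symbols were left out. H2-Q6 at 6.16 and H2-Q7 at 7.16 stood apart from H2-Q4 at 1.95 and H2-D1 at 1.13. Ubd and Gm20429, the high points at the right end, had 0 counts in P0 WT and averaged 0.121 and 0.298 CPM in P28 WT, so their plotted values depend on the small count added in the fit.

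The next comparison was of ME and wild-type cells at birth. In P0 ME against P0 WT none of the 10 members was called in edgeR, where 0.642% of all genes were called in either direction. None was under an unadjusted p of 0.05 in edgeR, and DESeq2 called 0 as well. The members' median log2 fold change was 0.12, and edgeR adjusted p ranged from 0.494 to 0.888. H2-Q7 had 0.76 (SE 0.48; adjusted p = 0.494, edgeR), with P0 ME libraries 2 to 4 at 1.86 to 2.12 CPM inside the P0 WT range and library 1 at 6.23 CPM above it. Without P0 WT library 1 the value was 1.59 and was called (edgeR adjusted p = 0.0377). H2-Q4 had -0.22 (edgeR adjusted p = 0.802) and, without P0 ME library 1, -0.92 (0.0479). B2m had -0.34 (edgeR adjusted p = 0.533), with 1735, 1793, 1128 and 1799.9 CPM in P0 ME.

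At P28, the regulator Nlrc5 was the 1 member called higher in P28 ME E10.5 than in P28 WT, where 7.82% of all genes were. It was at 20.2, 20.7, 33.1 and 38.0 CPM in P28 WT and 50.6, 55.0, 80.9 and 65.7 CPM in P28 ME E10.5, with no overlap. Its log2 fold change was 1.17 (SE 0.34; adjusted p = 0.0244, edgeR). The call was lost without P28 WT library 1 (0.99, edgeR adjusted p = 0.11), P28 WT library 2 (1.00, 0.116) or P28 ME E10.5 library 3 (1.03, 0.0864), and over other settings the adjusted p ran from 0.000218 to 0.0685. Tap1 was at 319.8, 296, 375 and 269.9 CPM, above all 4 P28 WT libraries, and did not pass (0.65, SE 0.27, edgeR adjusted p = 0.106). Nlrc5 and Tap1 were the 2 members wholly above P28 WT, as 16.6% of all genes were.

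B2m lay on the other side of wild type. Its 4 P28 ME E10.5 libraries, at 2681 to 3134 CPM, lay below the 4 of P28 WT, at 3199.7 to 4108 CPM. With Nlrc5 and Tap1 this made 3 members whose groups did not overlap, as in 28.2% of all genes. The B2m log2 fold change of -0.37 did not pass (edgeR adjusted p = 0.313). H2-T23 had -0.26 (edgeR adjusted p = 0.338) and H2-Q4 -0.36 (0.481). H2-Q6 and H2-Q7 averaged 234 ± 62.9 and 257 ± 59.1 CPM in P28 WT and 225 ± 59.9 and 227 ± 54.7 CPM in P28 ME E10.5 (± SD, n = 4), with ranges that overlapped. Fitted on the libraries of these groups alone, edgeR called 4 members, with 34.0% of all genes called in either direction. They were Nlrc5 and Tap1 higher, and B2m and H2-T23 lower. Among the pathway genes called higher was Rela, a subunit of NF-kappaB (0.62, edgeR adjusted p = 0.0298).

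With ME induced at birth, no member was called against P28 WT in edgeR, where 1.57% of all genes were. In edgeR 1 was under an unadjusted p of 0.05, and DESeq2 called 0. Nlrc5 was at 49.4, 53.8, 55.9 and 51.1 CPM and did not pass (0.91, SE 0.34, edgeR adjusted p = 0.128). It was the 1 member wholly above the same P28 WT libraries, as 14.4% of all genes were. B2m had -0.26 (edgeR adjusted p = 0.577). On these groups' libraries alone, with 27.9% of all genes called, both were called: Nlrc5 at 0.85 and B2m at -0.31. Between both times of induction no member was called (0.0477% of all genes were, DESeq2 called 0 members and 0 were under an unadjusted p of 0.05 in edgeR). H2-Q4 was at 26.1, 23.9, 26.2 and 23.5 CPM with induction at birth, above the 15.6, 17.6, 16.1 and 21.0 CPM of induction at E10.5. It was the 1 member whose groups did not overlap here, as in 11.8% of all genes. Its log2 fold change of 0.50 had an edgeR adjusted p of 1, and Tap1 had -0.31 (edgeR adjusted p = 1). On these groups alone, with 6.35% of all genes called, H2-Q4 was called at 0.56 (edgeR adjusted p = 0.0201). The difference between the ME effect at P28 and at P0 was called for no member (0.720% of all genes, DESeq2 0, and 0 under an unadjusted p of 0.05 in edgeR). It was -0.94 (SE 0.65; adjusted p = 0.499, edgeR) for H2-Q7 and 0.65 (0.519) for Nlrc5. These comparisons share control libraries and are not independent of one another.

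RLT Vav Txp had the highest mean level of the 6 groups for every heavy chain and for B2m. H2-Q7 was at 504, 741, 590.1 and 495 CPM in its 4 libraries and H2-Q6 at 469, 496, 354 and 342 CPM, above every other library of the study. Libraries are numbered here in accession order. The titles of libraries 1 and 2 begin with codes that share a number, and what the codes stand for is not given. Against P28 ME E10.5, with which it shares the time of induction, 2 members were called higher and 0 lower, where 8.50% and 9.38% of all genes were. H2-Q7 had a log2 fold change of 1.36 (SE 0.45; adjusted p = 0.0406, edgeR). H2-T23, at 509, 649, 524 and 459 CPM against 323, 321, 424 and 432 CPM, had 0.51 (SE 0.17; adjusted p = 0.0328, edgeR).

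Both calls depended on single libraries. H2-Q7 kept its call only without RLT Vav Txp library 1, and lost it in the other 7 of 8 fits that left out a library of either group, with edgeR adjusted p up to 0.123. H2-T23 lost it without P28 ME E10.5 library 1 or 2 or RLT Vav Txp library 2 or 3 (up to 0.143). Over other settings the adjusted p ran from 3.75e-08 to 0.0992 for H2-Q7 and from 0.00028 to 0.0468 for H2-T23. The sum of H2-Q6 and H2-Q7 had 1.14 (edgeR adjusted p = 0.0829).

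In 6 members (H2-D1, H2-Q4, H2-Q6, H2-Q7, H2-T23 and B2m) all 4 RLT Vav Txp libraries lay above all 4 P28 ME E10.5 libraries, as 11.6% of all genes did. H2-Q4 had 0.86 (edgeR adjusted p = 0.0514), H2-Q6 0.88 (0.235), B2m 0.54 (0.108) and H2-D1 0.32 (0.148). The regulator and both loading genes had negative values that did not pass, Nlrc5 -0.40 (edgeR adjusted p = 0.45), Tap1 -0.29 (0.503) and Tapbp -0.19 (0.343). On these groups alone, with 31.6% of all genes called, those 6 were called. The members' median was 0.42, against 0.12 over all genes.

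Against P28 WT, no member of RLT Vav Txp was called by edgeR, where 4.12% of all genes were. DESeq2 called 0, and 3 members were under an unadjusted p of 0.05 in edgeR. H2-D1, H2-Q4, H2-Q6, H2-Q7 and Nlrc5 had all their libraries above those of P28 WT, as 7.02% of all genes did. H2-Q7 had 1.18 (SE 0.45; adjusted p = 0.177, edgeR), H2-Q6 0.83 (0.488), H2-Q4 0.50 (0.495), Nlrc5 0.77 (0.256) and H2-D1 0.42 (0.138). Tapbp had -0.04. The members' median was 0.39 against 0.01 over all genes. On these groups alone, with 6.22% of all genes called, H2-Q7 (1.17, edgeR adjusted p = 0.00114) and H2-Q6 (0.82, 0.022) were called. H2-Q6 and H2-Q7 made up 14.6% ± 2.05 (SD, n = 4) of heavy chain reads, above the P28 WT and the P28 ME E10.5 libraries (exact permutation p = 0.0286 each, adjusted 0.0858).

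Macrophage markers moved with this group: 9 of 10 were called higher in RLT Vav Txp than in P28 WT and 10 of 10 than in P28 ME E10.5. Vsig4, a marker of tissue macrophages, had 0 counts in every other P28 library and averaged 3.05 ± 1.98 CPM (SD, n = 4) here. Neutrophil sums were 1858 to 6142 CPM here and 644 to 1742 CPM in the other P28 libraries. Erythroid sums were 538 to 1019.5 CPM against 113 to 504, and mast cell and basophil sums 78.3 to 196 CPM against 7.87 to 34.2. Of the 10 LSK markers, 1 was higher than in P28 WT, Slamf1 (2.25, edgeR adjusted p = 0.00573), and 3 were lower, led by the cytokine receptor gene Flt3 (-2.40, 7.23e-05) and Cd34 (-1.25, 0.000407). Within the 4 libraries, library 2 had the lowest macrophage sum (600.0 CPM) and the highest H2-Q7 (741 CPM). H2-Q6, H2-T23 and Nlrc5 were also highest there. Library 1 had the highest macrophage sum (2623 CPM) and the highest H2-K1 (2389 CPM), H2-D1 (3610.4 CPM), Tap1 (317 CPM) and Tapbp (503 CPM). H2-Q4 and B2m were highest in library 4. At P0, libraries with macrophage sums of 1064 to 1573 CPM had H2-Q7 at 0.403 to 2.12 CPM. The part of these markers in the class I values was not tested.

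**Figure D5:**
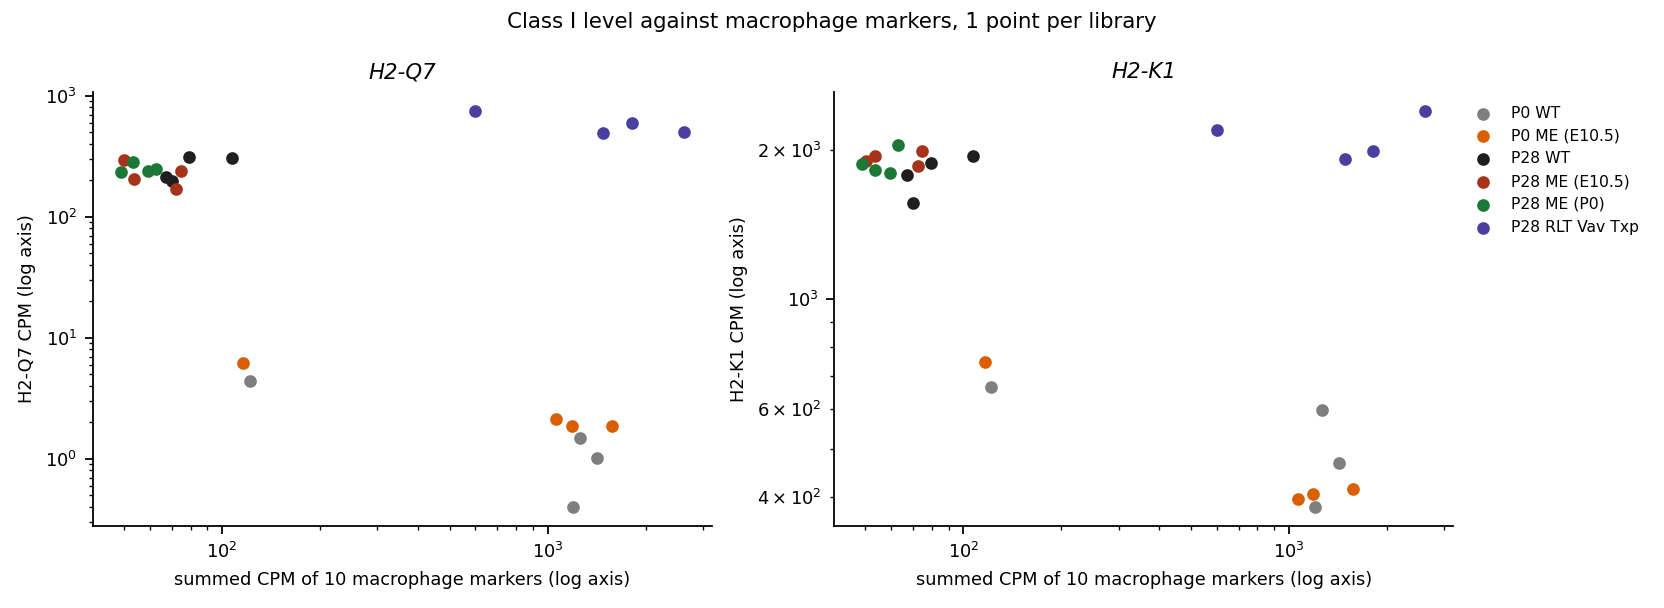
H2-Q7 and H2-K1 CPM (log axes) against the summed CPM of 10 macrophage markers (log axis), 1 point per library and 1 colour per group. P0 libraries with sums of 1064 to 1573 CPM had H2-Q7 at 0.403 to 2.12 CPM and H2-K1 at 382 to 598 CPM. The RLT Vav Txp libraries, with sums of 600.0 to 2623 CPM, had H2-Q7 at 495 to 741 CPM and H2-K1 at 1915 to 2389 CPM.

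No other pathway gene was called higher in RLT Vav Txp. Of the 23 pathway genes, 0 were higher and 4 lower than in P28 ME E10.5, with Rela at -0.80 (edgeR adjusted p = 0.00524) and the interferon regulatory factor Irf2 at -0.72 (0.0034). Against P28 WT, 0 were higher and Irf2 alone was lower (-0.59, 0.0324), where 1.48% of all genes were lower. Of 30 interferon response genes, 0 were higher and 15 lower than in P28 ME E10.5, where 9.38% of all genes were lower. The median log2 fold change of the 30 was -0.87. Oas2 (-2.23, edgeR adjusted p = 2.51e-05) and Mx2 (-2.20, 0.00179), both antiviral effectors, led the 15. Against P28 WT, 1 was higher and 7 lower, with a median of -0.38. P28 ME E10.5 itself had 4 of the 30 higher and 0 lower than P28 WT, with a median of 0.31, where 7.82% of all genes were higher. For comparison, 3 of these 30 were higher and 2 lower with age in WT cells, and 4 and 5 in ME cells. Of the other class I genes, 3 were higher against P28 WT and 4 against P28 ME E10.5. Among them, H2-M2 averaged 8.02 ± 5.60 CPM (SD, n = 4) in RLT Vav Txp and had 0 counts in every other P28 library.

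Across all 24 libraries, the genes whose log2 CPM followed that of H2-Q7 most closely were sought among 9656 genes, by Pearson's r given as a description. H2-Q5, another Q region gene annotated as a polymorphic pseudogene, had r of 0.978 (24 libraries). It was 0.857 within the 16 P28 libraries and 0.772 within the 8 P0 libraries, points that also differ in library depth and cell makeup. How the counting treated reads with several matches is not given, and their part in these r values was not tested. H2-Q5 averaged 2.55 ± 0.940 CPM (SD) in P0 WT, 37.2 ± 8.07 in P28 WT and 64.9 ± 17.9 in RLT Vav Txp, the same order as H2-Q7. Ltbp3 (0.973), Abcb1b (0.956), Gas6 (0.950) and H2-T22 (0.945) followed. Within the 16 P28 libraries Ltbp3 had 0.498, Abcb1b 0.83, Gas6 0.718 and H2-T22 0.641, lower than across all 24. Within the 8 P0 libraries they had 0.738, 0.495, 0.252 and 0.735. Of the 5 genes most like H2-K1, 3 were the same (Ltbp3 at 0.965, H2-Q5 at 0.953 and H2-T22 at 0.950). Within the 16 P28 libraries these had 0.368, 0.312 and 0.554, lower than across all 24. B2m was followed by other genes: Tmem176a (0.961), the class II loading gene H2-DMa (0.928), the immunoproteasome gene Psmb8 (0.909), Rab38 (0.898) and Mad2l2 (0.883). Within the 16 P28 libraries Tmem176a had 0.894, H2-DMa 0.808, Psmb8 0.690, Rab38 0.526 and Mad2l2 0.264.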

How the data were processed

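The authors deposited 1 table of raw read counts per Ensembl gene for the 24 libraries. Per the labels' protocols, extraction used the Qiagen RNeasy Plus kit, and library preparation used Clontech chemistry. The submitters' processing notes list STAR 2.7.9a, Subread, featureCounts 2.0.3 and GRCm38. The strand setting and the treatment of reads with several matches are not given in the sources used here. The table held 55774 entries for 55487 distinct IDs, and 287 repeats of 168 IDs were dropped.

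Genes passing edgeR's filterByExpr (minimum count 10) were TMM-scaled and entered a robust quasi-likelihood fit of all 24 libraries (18 residual degrees of freedom; R 4.3.3, edgeR 4.0.16), after tests on simulated data. Called genes had an adjusted p (Benjamini-Hochberg, over 23059 genes) under 0.05, in 9 comparisons. SEs come from this fit, and CPM values are TMM-normalised. Shares of reads were compared by exact permutation tests. Alternatives were RLE factors, plain totals, no filter, only the groups compared, H2-Q6 and H2-Q7 summed, DESeq2 1.42.0, limma 3.58.1 (voom), each library left out in turn, and a replicate block. Coding sequences were aligned with MAFFT 7.526, and promoters are RefSeq's.

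All 10 members are described. From each other list, at most the 2 called genes with the largest rise and the 2 with the largest fall were named, and exceptions say so. Results on 1 listed gene are not reported here. The members and lists were chosen with earlier results of these data known.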

Additional observations from a re-analysis of the deposited data

Results flagged for a closer look

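Each of the 10 genes was examined in each of the 6 groups for a library far from the other 3, by Dixon's criterion at the 95% level, which chance meets in about 1 of 20 groups. This found 9 of 60 cases, 8 of them in P0 libraries. P0 ME library 1 was the high library for 5 heavy chains. It had H2-K1 at 748 CPM with the others at 396 to 415, and H2-D1 at 1318 CPM with the others at 846 to 924. It had H2-Q4 at 10.8 CPM (others 2.22 to 3.63), H2-Q6 at 13.0 CPM (others 1.76 to 3.11) and H2-Q7 at 6.23 CPM (others 1.86 to 2.12). This library is 1 of the P0 libraries with low neutrophil, macrophage and erythroid marker sums, and the part of those markers was not tested. H2-D1 was low in P0 WT library 2, at 790.0 CPM with the others at 1153 to 1206, and high in RLT Vav Txp library 1, at 3610.4 CPM with the others at 2958 to 3047. B2m was high in P0 WT library 4, at 3836 CPM with the others at 1230 to 1618, and low in P0 ME library 3, at 1128 CPM with the others at 1735 to 1800. The cause of these values was not tested.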

How the results depend on the processing

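Members called changed by over 1.5 times with these settings. With plain totals or no filter, P28 ME E10.5 against WT had 0 (1 as reported) and RLT Vav Txp against P28 ME E10.5 had 1 (2 as reported). With only the groups compared, counts were 4 for P28 ME E10.5 and 2 for P28 ME P0 against WT, 1 between induction times, and 2 and 6 for RLT Vav Txp against WT and P28 ME E10.5. limma voom gave 4, 1, 2, 4 and 7 in that order. For RLT Vav Txp against P28 ME E10.5, summing H2-Q6 and H2-Q7 gave 1 and DESeq2 4. The age comparison in ME had 6 with only the P0 libraries numbered 1, an alternative added after seeing the data. With 1 library left out, the counts ran from 7 to 9 (WT age), 7 to 10 (ME age), 0 to 1 (P0 ME against WT), 0 to 1 (P28 ME E10.5 against WT) and 0 to 2 (RLT Vav Txp against P28 ME E10.5), and were 0 for the others.

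Over all alternatives, H2-Q7 stayed called with age in WT and in ME, with log2 fold changes from 5.93 in WT and 5.25 in ME. In P0 ME against P0 WT, H2-Q4 (0.70) and B2m (0.10) were positive with only the P0 libraries numbered 1. With 1 library left out, B2m there ran from -0.55 to 0.13, positive without P0 WT library 4, and Tapbp in RLT Vav Txp against WT from -0.17 to 0.024, positive without RLT Vav Txp library 3. Of 850 member values under alternatives 32 had the other sign, none of them called, and 42 of 800 with 1 library left out. Plain totals moved the median of all genes by up to -0.20 (the interaction), 0.15 with age in WT and -0.13 in P28 ME E10.5 against WT. Genes called ranged over alternatives from 5 to 1008 (148 reported) in P0 ME, 1767 to 6505 (2827) in P28 ME E10.5, 206 to 5196 (362) in P28 ME P0, 11 to 2333 (11) between inductions, 722 to 1772 (950) and 2893 to 8112 (4122) in RLT Vav Txp against WT and ME E10.5, 481 to 2978 (1771) with age in WT, 1149 to 5936 (4206) in ME and 41 to 963 (166) for the interaction.

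Replicate numbers did not pair the samples across all groups: deviations of 14 of 40 same-number pairs correlated above 0.1, with r from -0.39 to 0.66. Between P0 WT and P0 ME the values for numbers 1 to 4 were 0.66, 0.053, 0.37 and 0.46, with the own number highest in 3 of 4. H2-Q7 was higher in P0 ME in all 4 same-number pairs, and had a log2 fold change of 0.84 with the replicate block (edgeR adjusted p = 0.411). With the replicate block on the 20 numbered libraries, 9 (WT age), 10 (ME age), 1 (P28 ME E10.5 against WT) and 0 (the others) members were called. Without the block the same libraries gave 8, 10, 1 and 0. At the depth of 32.5 to 90.1 reads per CPM, H2-Q7 rested on 31 to 403 reads and H2-Q6 on 57 to 839 reads in the P0 libraries. These are fewer reads than in any P28 library. The P0 values also spread widely between libraries. In P0 WT, H2-Q7 had 1.83 ± 1.78 CPM and H2-Q6 3.26 ± 2.30 CPM (SD, n = 4).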
